A study of Arabidopsis thaliana with 24 samples.

Results

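The genes described here are 9 Arabidopsis thaliana genes that act when glucosinolates are broken down, taken as a list of loci: the specifier gene ESP (AT1G54040), its neighbour MVP1 (AT1G54030), ESM1 (AT3G14210), the myrosinase genes TGG1 (AT5G26000), TGG2 (AT5G25980) and PEN2 (AT2G44490), and the nitrile-specifier genes NSP1 (AT3G16400), NSP2 (AT2G33070) and NSP5 (AT5G48180). All 9 had at least 1 listed start site cluster, among 22582 genes that had one and 37899 annotated nuclear genes. A cluster was given to a gene when its peak lay on the strand of that gene, no more than 500 bp before its annotated start and not past its annotated end. The 9 genes held 371 of 316778 clusters outside the rRNA repeats, with 94 in Altenb-2, 113 in Vash-1, 93 in Kly-1 and 71 in Shigu-2.

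Capped RNA ends were sequenced by CAGE (cap analysis of gene expression) from the aerial parts of 2-week-old plants of 4 accessions (Altenb-2, Vash-1, Kly-1 and Shigu-2), all labelled WT. The labels describe 24 libraries, with 3 replicates in each of 8 groups. In each accession the treated group had 24 h at 4 °C and 140 µE of light, against 22 °C and 40 µE for the control group, and all plants had grown under continuous light. The deposited table holds 1 pooled set of clusters per accession, matched to the accessions here by the initials of the cluster identifiers, with no column for treatment, library or replicate. A set therefore gives 1 value per gene, with no replicate error and no test, the response to cold and high light could not be computed, and accession and treatment cannot be told apart as sources of a difference between sets.

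Outside the rRNA repeats there were 22462179 tags in Altenb-2, 24535666 in Vash-1, 29311532 in Kly-1 and 37230794 in Shigu-2. Levels are CPM, tags per 1000000 of these. A capped end gives 1 tag whatever the length of the RNA, so levels of different genes were compared without a length correction. Intervals are 95% intervals, exact Poisson for levels and exact binomial for shares and ratios, and cover counting error only. Of the markers of the labelled tissue, RBCS1A, LHCB1.3 and RCA summed to 40196 to 52177 CPM in the 4 sets, and the 5 root markers to 1.07 to 2.32 CPM, with WOX5, RHD6 and EXPA7 at 0 in every set. The 4 genes COR15A, KIN1, ELIP1 and RD29A, known to respond to cold or high light, summed to 3015 CPM in Altenb-2, 3437 in Vash-1, 4532 in Kly-1 and 6754 in Shigu-2. The part of this difference in the results below was not tested.

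Glucosinolates are sulphur-containing defence compounds of the cabbage family that are kept apart from the enzymes that split them. When tissue is damaged, myrosinases such as TGG1 and TGG2 remove the glucose, and the unstable product rearranges to an isothiocyanate unless a specifier protein diverts it. ESP, the epithiospecifier protein, directs it to epithionitriles and nitriles, and the NSPs direct it to simple nitriles; natural variation at ESP and ESM1 is known to alter the products that accessions form.

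The sequences at the main start sites of ESP, TGG2 and TGG1 are shown because these genes carry the contrasts below: ESP and TGG2 varied most between sets, and TGG1 is the close relative of TGG2 that varied little. They are read 5′ to 3′ from the TAIR10.1 reference of RefSeq, which is the accession Col-0, at chr1:20173923-20174183 on the minus strand for ESP (250 bases before the peak to 10 after it), at chr5:9072687-9072742 on the plus strand for TGG2 and at chr5:9082370-9082425 on the minus strand for TGG1 (45 bases before to 10 after). Capitals mark the TATA motif (TATAAA or TATATA, overlapping in TGG1 and TGG2) and the base at which the tags peaked, which for TGG1 is the peak in Altenb-2. The genomes of the 4 accessions themselves were not used here. A level counts only tags that were placed at these reference coordinates, and the loss of tags where an accession differs from Col-0 was not tested. The low levels of ESP and TGG2 in Shigu-2 below are to be read with this limit.
ESP: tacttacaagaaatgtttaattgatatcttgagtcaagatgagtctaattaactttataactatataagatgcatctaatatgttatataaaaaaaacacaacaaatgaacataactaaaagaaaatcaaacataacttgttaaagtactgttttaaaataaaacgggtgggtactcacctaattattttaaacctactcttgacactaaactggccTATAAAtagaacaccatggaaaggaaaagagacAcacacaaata
TGG2: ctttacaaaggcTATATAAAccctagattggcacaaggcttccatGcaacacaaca
TGG1: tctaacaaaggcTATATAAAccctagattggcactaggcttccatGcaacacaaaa

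Among the specifier genes, ESP had the widest range of levels. ESP (chromosome 1, 20170715 to 20173949, minus strand) had 3044 CPM in Altenb-2 (68371 tags, interval 3021 to 3067), 1179.8 CPM in Vash-1 (28946 tags, 1166 to 1193), 125 CPM in Kly-1 (3654 tags, 121 to 129) and 6.45 CPM in Shigu-2 (240 tags, 5.66 to 7.32). No 2 of the 4 intervals overlapped, and the order was Altenb-2, Vash-1, Kly-1 and Shigu-2, from high to low. Altenb-2 was 472-fold above Shigu-2 (interval 416 to 538), 24.4-fold above Kly-1 and 2.58-fold above Vash-1. On the scale of log2(CPM + 0.5), which understates differences of low genes, the difference of each set from the mean of the other 3 was 4.92 in Altenb-2, 3.09 in Vash-1, -1.22 in Kly-1 and -6.79 in Shigu-2. Of the 14774 genes with 5 CPM or more in at least 1 set, 99.9% had a smaller ratio of highest to lowest set than ESP. For this ratio a set under 3 tags was put at 3 tags. Only 14598 of these genes were listed in all 4 sets, and for the others the ratio is a lower bound. The floor also keeps the ratio of genes with low levels below that of ESP.

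The expressed genes beside ESP had more even levels. MVP1 (chromosome 1, 20167597 to 20169684, plus strand), a GDSL lipase-like protein of trafficking through the endoplasmic reticulum that ends 1030 bp from ESP, had 67.6 CPM in Altenb-2, 60.4 in Vash-1, 84.8 in Kly-1 and 58.2 in Shigu-2. Its highest set, Kly-1, was 1.46-fold above its lowest, Shigu-2 (interval 1.38 to 1.55), and Vash-1 and Shigu-2 did not differ beyond counting error (ratio 1.04, interval 0.972 to 1.11). On the other side, ASIL1, 6660 bp away, had 22.3 to 24.6 CPM in the 4 sets. The pseudogene AT1G54035 lies 49 bp from the end of ESP on the same strand, so the 500 bp counted before its start overlap ESP. The only tags given to it, 20 for Altenb-2 and 8 for Vash-1, are those of ESP clusters that peak at 20171091 and 20171157. No cluster of its own was listed in any set, so its level is not a measure apart from ESP.

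NSP1 was the second specifier gene whose level differed several-fold. NSP1 (chromosome 3, 5566083 to 5568545, plus strand) had 8.81 CPM in Altenb-2 (198 tags), 55.7 CPM in Vash-1 (1367 tags), 68.0 CPM in Kly-1 (1994 tags) and 19.1 CPM in Shigu-2 (710 tags). Kly-1 was 7.72-fold above Altenb-2 (interval 6.67 to 8.98) and 1.22-fold above Vash-1 (1.14 to 1.31), and every neighbouring pair in the order differed beyond counting error. Altenb-2, the set with the most ESP, had the least NSP1, while Vash-1 was high in both, so the sets were not ordered alike or in reverse by these 2 genes. NSP1 lies in a row with its relatives NSP3 and NSP4, which reached at most 0.161 and 1.60 CPM, and the labels do not say how tags that match several copies were handled.

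NSP5 and NSP2 varied less or were near the limit of listing. NSP5 (chromosome 5, 19540937 to 19542760, minus strand) had 20.7 CPM in Altenb-2, 33.0 in Vash-1, 22.4 in Kly-1 and 34.9 in Shigu-2. These summed levels formed pairs of like sets: Shigu-2 and Vash-1 (ratio 1.06, interval 0.969 to 1.16), and Kly-1 and Altenb-2 (ratio 1.08, interval 0.962 to 1.22). In the main cluster alone the second pair stood further apart, with 9.01 CPM in Kly-1 (264 tags) and 6.46 CPM in Altenb-2 (145 tags). NSP2 (chromosome 2, 14028282 to 14031164, minus strand), which is best known from seeds, had 15 tags in Altenb-2, 37 in Vash-1, 18 in Kly-1 and 25 in Shigu-2, or 0.668, 1.51, 0.614 and 0.671 CPM in that order. It was the one gene of the 9 under 5 CPM in every set. All of its listed tags lay in the 3′ UTR, with the main peak 2109 bp inside the gene start in each set but Altenb-2, and no cluster was listed at its annotated start, where up to 4 tags per cluster can go unlisted.

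The 4 specifier genes therefore made up very different mixtures of tags. ESP gave 99.02% of their tags in Altenb-2 (68371 of 69049), 92.9% in Vash-1 (28946 of 31160), 57.8% in Kly-1 (3654 of 6324) and 10.5% in Shigu-2 (240 of 2276). NSP1 gave 0.287% in Altenb-2, 4.39% in Vash-1, 31.5% in Kly-1 and 31.2% in Shigu-2. NSP5 gave 0.673%, 2.60%, 10.4% and 57.2% in the same order of sets, and had the largest share in Shigu-2. That lead rested on tags past the start codon: with these left out, Shigu-2 had 13.6 CPM of NSP5 and 16.1 CPM of NSP1, and the main clusters alone had 13.6 and 15.01 CPM. The summed level of the 4 genes was 3074 CPM in Altenb-2, 1270.0 in Vash-1, 216 in Kly-1 and 61.1 in Shigu-2.

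**Figure D1:**
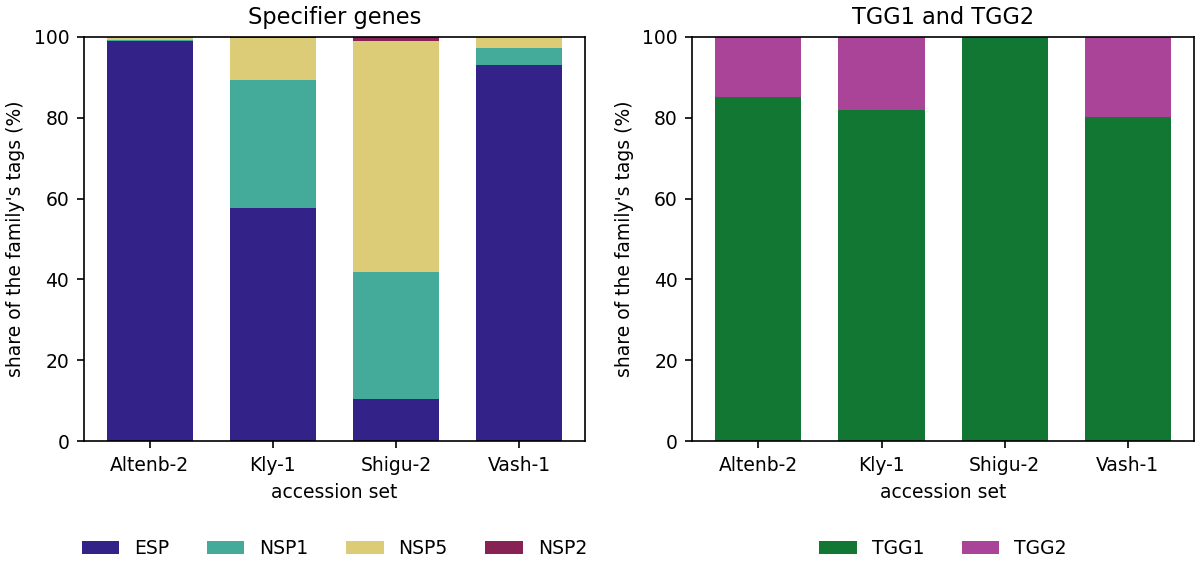
Stacked bars give the share (%) of the tags of 2 gene families taken by each gene, with the 4 accession sets on the x axis: the specifier genes ESP, NSP1, NSP5 and NSP2, and the myrosinase genes TGG1 and TGG2. ESP takes 99.02% in Altenb-2 and 10.5% in Shigu-2, and TGG2 takes 0.392% of the myrosinase tags in Shigu-2 against 14.9 to 19.8% in the other sets.

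ESM1, a GDSL lipase-like protein that favours isothiocyanates over nitriles, was high in 1 set. ESM1 (chromosome 3, 4729399 to 4731847, plus strand) had 61.5 CPM in Altenb-2 (1382 tags, interval 58.3 to 64.9), 12.02 CPM in Vash-1 (295 tags), 9.89 CPM in Kly-1 (290 tags) and 12.8 CPM in Shigu-2 (478 tags). Altenb-2 was 4.79-fold above Shigu-2 and 6.22-fold above Kly-1 (interval 5.48 to 7.08), and Shigu-2 and Vash-1 did not differ beyond counting error (ratio 1.07, interval 0.922 to 1.24). Altenb-2 was thus the highest set for both ESP and ESM1, whose proteins are known for opposite effects on nitrile formation. Its relative AT3G14220, 980 bp downstream, had 12.5 CPM there, and between 11.3 and 17.8 CPM elsewhere.

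Of the myrosinase genes, TGG1 was high everywhere and TGG2 had few mapped tags in Shigu-2 alone. TGG1 (chromosome 5, 9079452 to 9082384, minus strand) and TGG2 (chromosome 5, 9072708 to 9075777, plus strand) encode the classical myrosinases of myrosin cells and guard cells and lie 3674 bp apart. TGG1 had 513 CPM in Altenb-2, 613 in Vash-1, 683 in Kly-1 and 785 in Shigu-2, so its highest set was 1.53-fold above its lowest (interval 1.497 to 1.56). TGG2 had 90.2 CPM in Altenb-2 (2025 tags), 151 CPM in Vash-1 (3717 tags), 150.01 CPM in Kly-1 (4397 tags) and 3.09 CPM in Shigu-2 (115 tags, interval 2.55 to 3.71). Vash-1 was 49.05-fold above Shigu-2 (interval 40.7 to 59.6), and Vash-1 and Kly-1 did not differ beyond counting error (ratio 1.01, interval 0.966 to 1.06). For Shigu-2 the order of these neighbouring genes was opposite: it had the most TGG1 and the least TGG2.

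TGG2 gave 14.9% of the tags of both genes in Altenb-2, 19.8% in Vash-1, 18.0% in Kly-1 and 0.392% in Shigu-2 (interval 0.324 to 0.470). With the main cluster of each gene alone the shares were 14.7, 19.6, 17.7 and 0.421% in that order. The start site windows of TGG1 and TGG2 shown above were identical at 51 of 56 bases, with 30 in a row. The 205 bases before them matched at 27.8% when laid side by side without gaps, and were not aligned with gaps. The 100 bases from the start site on matched at 26% without gaps. With gaps, their best local alignment matched 76 of 95 positions, with at most 16 in a row. The 27.8% therefore cannot tell whether the upstream stretches differ. Further into the transcripts the best local alignment matched 238 of 308 positions, with at most 40 in a row, so tags of the pair could not be checked for exchange between them.

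FAMA, a regulator of myrosin cells and guard cells, had 10.0 CPM in Altenb-2, 9.66 in Vash-1, 10.3 in Kly-1 and 10.7 in Shigu-2. The 4 guard cell markers KAT1, HT1, MYB60 and AT1G22690 summed to 58.8 CPM in Altenb-2, 117 in Vash-1, 101 in Kly-1 and 102 in Shigu-2, with none at 0. In whole aerial parts, fewer cells of a type and less RNA per cell cannot be told apart, and the part of guard cell content in the levels of TGG1 and TGG2 was not tested. The guard cell sum was lowest in Altenb-2, and that of Shigu-2 lay within the range of the other 3 sets.

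PEN2, an atypical myrosinase that acts on indole glucosinolates in defence against fungi, varied little. PEN2 (chromosome 2, 18364652 to 18367835, plus strand) had 52.3 CPM in Altenb-2, 67.9 in Vash-1, 88.5 in Kly-1 and 63.4 in Shigu-2. Kly-1 was 1.69-fold above Altenb-2 (interval 1.58 to 1.82), and the nearest neighbours in the order, Vash-1 and Shigu-2, differed by 1.07-fold (1.01 to 1.14).

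**Figure D2:**
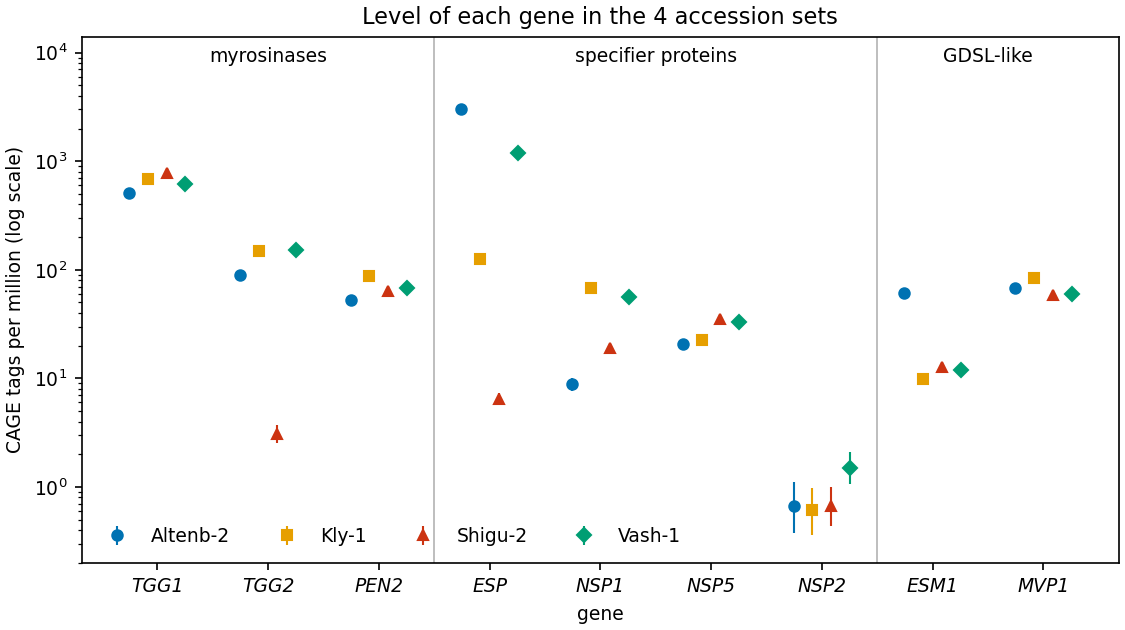
Level of each gene (CPM, log axis) in the 4 accession sets, with exact Poisson 95% bars. The 4 points of ESP run from 6.45 to 3044 CPM, TGG2 has 1 low point at 3.09 CPM in Shigu-2, and the points of TGG1, MVP1, NSP5 and PEN2 span 1.46 to 1.69-fold per gene.

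By the number of genes past 2-fold, 4 of the 8 that reached 5 CPM differed by 2-fold or more between their highest and lowest set (ESP, ESM1, TGG2 and NSP1), against 25.4% of all genes tested. The same 4 of 8 were 2-fold or more from the mean of the other 3 sets in at least 1 set, against 15.6% of all genes. The median log2 ratio of highest to lowest set was 1.70 over the 8 genes and 0.64 over all genes. The genes were listed with earlier results of these data known, so these counts describe them and say nothing of the pathway at large.

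Set by set, Altenb-2 was 2-fold or more above the mean of the other 3 sets for ESP, ESM1 and TGG2 (3 of 8, against 2.74% of all genes) and below it for NSP1 (1 of 8, against 4.55%). Kly-1 was above it for TGG2 and NSP1 (2 of 8, against 3.91%) and below it for ESP and ESM1 (2 of 8, against 2.75%). Shigu-2 was above it for 0 of 8 (against 3.76%) and below it for ESP and TGG2 (2 of 8, against 3.67%). Vash-1 was above it for ESP, TGG2 and NSP1 (3 of 8, against 3.63%) and below it for 0 of 8 (against 4.24%). Because the mean of the others takes in Shigu-2, the low TGG2 of that set enters the positive differences of Altenb-2 (1.06), Kly-1 (2.04) and Vash-1 (2.05). Against the pooled CPM of the other sets in place of the mean of their log2 values, 3 of the 13 calls were inside 2-fold. These were TGG2 in Altenb-2 (ratio 0.998, interval 0.95 to 1.05), ESP in Vash-1 (1.45, interval 1.43 to 1.47) and NSP1 in Vash-1 (1.71, interval 1.60 to 1.82). By the same ratio NSP1 in Shigu-2 (0.409) and ESM1 in Shigu-2 and Vash-1 (0.498 in each), which were not called, were past 2-fold below the others, though the intervals of ESM1 (0.450 to 0.551 and 0.439 to 0.562) reach inside it. The difference of TGG2 in Altenb-2 was 0.78 with the rRNA repeats kept in the totals. The difference of ESM1 in Kly-1, -1.07, was likewise inside 2-fold with the repeats kept (-0.90).

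**Figure D3:**
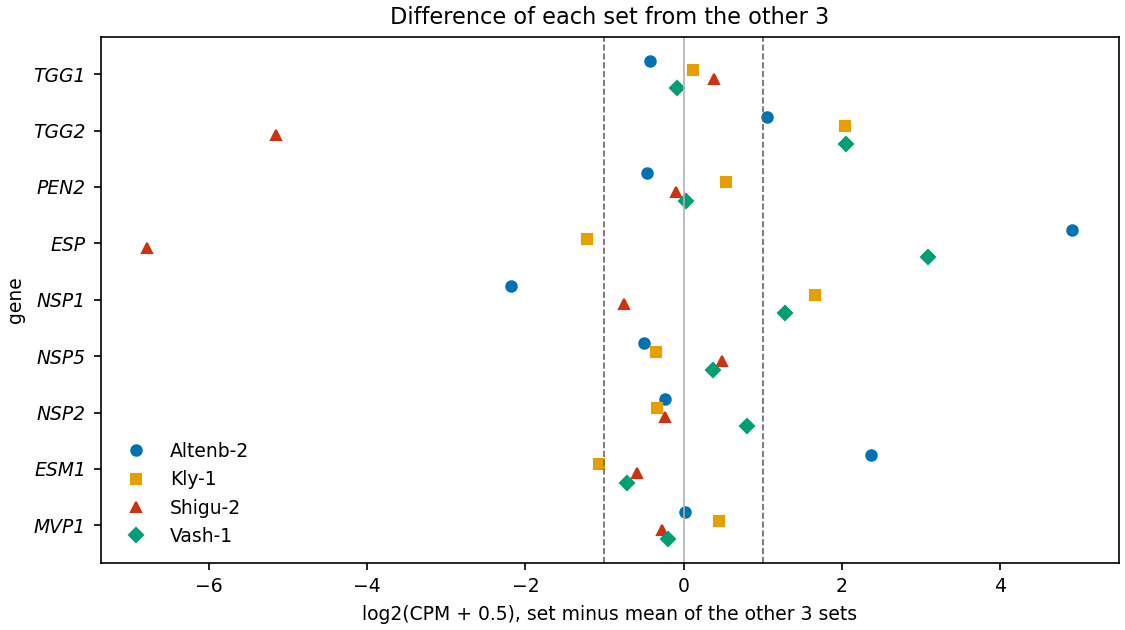
Difference of each accession set from the mean of the other 3, on the scale of log2(CPM + 0.5), for the 9 genes, with dashed lines at 2-fold. ESP runs from -6.79 in Shigu-2 to 4.92 in Altenb-2, and TGG2 stands at -5.15 in Shigu-2, while TGG1, MVP1, NSP5 and PEN2 stay within the lines.

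The main start site, the position with the most tags in a gene, was at the same base in all 4 sets for ESP, ESM1, TGG2, NSP1, NSP5 and PEN2, which is 6 of the 8 genes, against 62.4% of the 14598 genes listed in every set. Levels could thus differ by 472-fold in ESP and 49.05-fold in TGG2 with the same peak base. For ESP this was position 20173933, 16 bp inside the annotated gene start and 48 bp before the start codon. It held 66.6% of its cluster's tags in Altenb-2, 60.2% in Vash-1, 55.1% in Kly-1 and 69.6% in Shigu-2.

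TGG1 peaked at position 9082380 in Altenb-2 and at 9082378 in the other sets. The peak of TGG2 was at 9072732 in all sets, the last base of its most upstream annotated start codon, and held 77.6, 74.4, 75.2 and 73.0% of its cluster's tags in Altenb-2, Vash-1, Kly-1 and Shigu-2. The level of TGG2 therefore rests on counting past that codon: without clusters that peak there, it had 8 tags in Vash-1 and none listed in the other sets. ESM1 started 444 bp inside its annotated gene start (4729843), NSP1 268 bp inside (5566351), NSP5 340 bp inside (19542420) and PEN2 105 bp inside (18364757), all in the annotated 5′ UTR.

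MVP1 had the longest shift of its peak. Its main cluster was 173 to 220 bp wide and ran across the start codon, and it peaked at 20167634, 51 bp before the start codon, in Shigu-2, against 20167721, 36 bp past it, in the other sets. The peak base held 23.5% of that cluster's tags in Shigu-2 and 16.5 to 21.9% in the other sets. The cluster as a whole had 66.8 CPM in Altenb-2, 60.2 in Vash-1, 84.7 in Kly-1 and 57.7 in Shigu-2, so its range was close to that of the gene. If clusters that peak past the start codon were left out, MVP1 would be counted in Shigu-2 and almost nowhere else, with a log2 difference of 6.69 for Shigu-2.

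At the main start site of all genes tested, a TATA motif (TATAAA or TATATA on the gene's strand, starting 40 to 25 bases before the peak) was found in 22.5%, against 3.44% in a control window 100 bases further upstream. It was found in ESP and ESM1 at -33, in TGG2 at -33 and -31, at the same letters in TGG1 (both shown above), and in PEN2 at -32, and not in MVP1, NSP1 and NSP5. Of the genes that varied by 2-fold or more, ESP, ESM1 and TGG2 had such a motif and NSP1 had none. Of those that varied less, TGG1 and PEN2 had one and MVP1 and NSP5 had none. A link between the motif and the range of levels was not tested. All 8 genes peaked on a pyrimidine followed by a purine, as did 90.4% of all genes.

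In the 250 bases before the peak, searched on both strands, the G-box core CACGTG was found in 0 of 8 genes (10.1% of all genes) and CCGAC, the core that cold-response factors of the CBF family bind, also in 0 of 8 (16.3%). TTGAC, the core bound by WRKY factors, was found in ESP, MVP1, NSP1 and PEN2, or 4 of 8, against 44.1%. These matches are read in the Col-0 sequence and say only which letters it holds. The ESP stretch shown above was 72.8% A and T.

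Away from the main start sites, most clusters were small and lay in coding sequence. The 36 main clusters had a median of 1389 tags and a median width of 46 bp, and 35 of them peaked on a pyrimidine-purine step. The other 335 clusters had a median of 13 tags and of 21 bp, and 138 of them peaked on such a step. The share of a gene's tags in clusters that peaked past the most upstream start codon was 2.90% for ESP in Altenb-2, 2.09% in Vash-1, 0.246% in Kly-1 and 0% in Shigu-2 (0 of 240 tags, interval up to 1.53%). This interval does not allow for clusters under 5 tags, which are not listed. With 240 tags in all, the 0% of Shigu-2 therefore does not show a lower share than in the other sets. For TGG1 the share was 8.74, 7.23, 6.30 and 6.96% in the same order of sets, and the clusters numbered 26, 28, 27 and 18. In all coding genes tested the median was 0 to 0.498%, and 1 gene in 10 had more than 10.3 to 12.8%.

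NSP5 stood apart in this respect, with 66.7% of its tags past the start codon in Altenb-2, 60.1% in Vash-1, 59.9% in Kly-1 and 61.0% in Shigu-2. Between 5.14 and 5.22% of all coding genes exceeded 50%, depending on the set. A broad cluster of 127 to 270 bp peaked at 19541715, 643 bp past the start codon, in every set, with 110 tags in Altenb-2, 263 in Vash-1, 142 in Kly-1 and 330 in Shigu-2. It had 4.56 to 9.15% of its tags at the peak. The main cluster of NSP5 alone had 6.46, 12.9, 9.01 and 13.6 CPM in the same order. This ranks the sets as its summed level does, but with Altenb-2 further below Kly-1. For NSP1 the share past the start codon was 15.7% in Altenb-2, 19.5% in Vash-1, 2.46% in Kly-1 and 15.5% in Shigu-2, which includes a cluster of 192 tags in Vash-1.

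**Figure D4:**
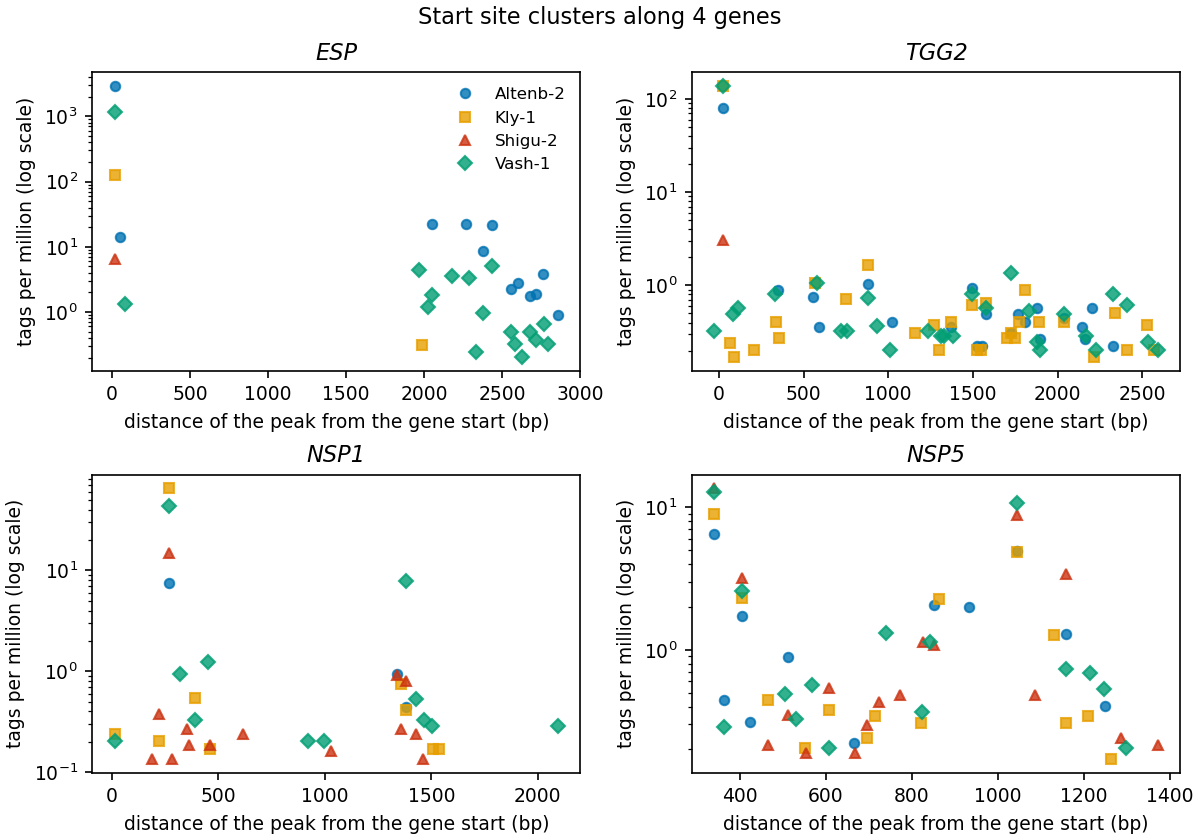
Each point is a start site cluster of ESP, TGG2, NSP1 or NSP5 in 1 accession set, with its level (CPM, log axis) against the distance of its peak from the gene start (bp). The strongest cluster of each gene is at the same distance in the 4 sets (16, 24, 268 and 340 bp), and NSP5 has a second group of clusters around 1045 bp.

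By the Euclidean distance between log2(CPM + 0.5) profiles over the 4 sets, each centred on its own mean, the 5 genes most like ESP and NSP1 were sought among 8397 genes of 20 CPM or more in a set. For ESP the nearest were AT3G28310 (distance 2.29), AT2G05914, AT2G04460, HSPRO2 and ACL5 (3.30). Unlike ESP, the genes AT2G04460, HSPRO2 and ACL5 were highest in Vash-1, with 171.5 CPM of HSPRO2 there against 80.8 in Altenb-2. AT3G28310 had 47.6 CPM in Altenb-2, 13.9 in Vash-1, 3.34 in Kly-1 and 0.161 in Shigu-2. For NSP1 they were AT1G52000 (0.537), AT2G38790, CRK10, PXMT1 and AT5G43450.

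For ESM1 and TGG2, which were added after their values were seen, the nearest were CIL (0.186) and AT1G26690 (0.582). AT1G26690 had 19.3 CPM in Altenb-2, 19.6 in Vash-1, 20.4 in Kly-1 and 0.134 in Shigu-2. Such likeness rests on 4 values per gene that share their libraries and is a description.

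Of 44 other genes of the same biology, 27 reached 5 CPM and 12 were 2-fold or more from the mean of the other 3 sets in at least 1 set, against 15.6% of all genes. By group these were 2 of 4 other myrosinases and beta-glucosidases, 0 of 2 GDSL relatives, 5 of 6 myrosinase-binding and jacalin-like proteins, 2 of 6 downstream enzymes and transporters, 0 of 6 myrosin cell and transport genes and 3 of 3 ER body genes, and the specifier relatives NSP3 and NSP4 were both under 5 CPM. Across the 27, Altenb-2 had 0 genes 2-fold higher (against 2.74% of all genes) and 6 lower (4.55%), and Vash-1 had 6 higher (3.63%) and 1 lower (4.24%). Kly-1 had 4 higher (3.91%) and 1 lower (2.75%), and Shigu-2 had 1 higher (3.76%) and 3 lower (3.67%). These genes too were listed with earlier results of these data known, so the counts describe them only. The 3 ER body genes counted had low levels, at most 19.7 CPM in any set.

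The jacalin-like gene AT1G52000 had 13.2 CPM in Altenb-2, 138 in Vash-1, 133 in Kly-1 and 34.1 in Shigu-2, the profile nearest to NSP1. MBP1, a myrosinase-binding protein, had 9.71, 42.0, 8.94 and 29.6 CPM in the same order, and JAL33, another jacalin-like protein, had 23.5, 24.9, 54.1 and 9.40 CPM. BGLU18, a beta-glucosidase of ER bodies, had 46.3 CPM in Altenb-2, 140.6 in Vash-1, 106 in Kly-1 and 140.8 in Shigu-2.

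In the group listed as downstream enzymes and transporters, NIT4, a nitrilase acting on beta-cyanoalanine, had 18.3 CPM in Altenb-2, 20.8 in Vash-1, 108 in Kly-1 and 103 in Shigu-2. It was low in the 2 sets with the most ESP and high in the other 2. NIT1 and NIT2 of the same group did not have this pattern. NIT1 had 180, 403, 196 and 276 CPM and NIT2 had 14.9, 11.7, 6.69 and 8.43 CPM in that order. PCS1, a phytochelatin synthase that also acts in the PEN2 pathway, had 22.6, 44.6, 60.7 and 21.3 CPM in Altenb-2, Vash-1, Kly-1 and Shigu-2, and like PEN2 was highest in Kly-1.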

How the data were processed

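Start sites were measured by CAGE from total RNA, with cDNA made from random primers and capped molecules selected through biotin, per the labels' protocols. The authors deposited 1 table of start site clusters. The authors deposited its cluster counts and peak counts as raw whole-number tag counts, without any normalization. The deposited peak ratio is the fraction of a cluster's tags at the peak. Per the file headers, the table also has each cluster's ends, width and peak position, in bp. STAR 2.7.9a is the aligner that the submitters' processing notes name. Not given in the sources used here are the genome build, the tag filter, the clustering rule, the handling of multiple matches and the libraries behind each set. No molecular identifiers are named, so tags may include PCR copies.

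Coordinates were compared with TAIR10.1: all cluster ends lay within its 5 chromosomes, and the peak base and the one before it formed a pyrimidine-purine step in 70.8% of clusters, while 50 bp away this share was 19.99%. Clusters at the nuclear rRNA genes (up to 5000 bp around them), which held 40.8 to 54.6% of the tags of a set, were set aside, and CPM was computed from the remaining tags. The smallest listed cluster has 5 tags, or 0.134 to 0.223 CPM. Differences used a pseudocount of 0.5 CPM, a minimum of 5 CPM in any 1 set and a threshold of 2-fold. There was 1 value per set, so no test between sets was made. The log2 differences and the intervals of ratios were run on simulated counts with counting error only, the error that the intervals assume. These runs do not cover PCR copies or differences between replicates.

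The 9 genes and the other gene lists were chosen with earlier results of these data known. All 9 are named; of the other lists, genes past 2-fold with 20 CPM or more in a set, up to 3 per list, and the 5 genes with the profile nearest to ESP, TGG1 and NSP1, where the gene's range was 2-fold or more, which TGG1's was not. The alternatives were 2 other scalings, other windows, cluster minimums, peak tags, pseudocounts and level minimums. Work was done in Python 3.11.15 with numpy 2.4.6, pandas 2.3.3, scipy 1.17.1 and matplotlib 3.10.9.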

Additional observations from a re-analysis of the deposited data

How the results depend on the processing

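No paired analysis was possible because the columns carry no library or replicate, and for the same reason no replicate could be left out. The number of genes over 2-fold between sets was 4 under 7 of the 8 alternatives, with MVP1 in place of TGG2 where the gene body was left out, and 6 with the rRNA repeats kept in the total, where NSP5 (log2 1.14) and PEN2 (1.06) joined. The 13 differences past 2-fold over the 8 genes and 4 sets numbered 11 to 13: ESM1 in Kly-1 moved to -0.90 with the repeats kept and -0.93 with peak tags only, and TGG2 in Altenb-2 to 0.78 with the repeats kept. With the gene body left out, TGG2 was unlisted except for 8 tags in Vash-1, because its peak lies 2 bp past the first base of the start codon: its log2 difference was then -0.24 in Altenb-2, -0.24 in Kly-1, 0.72 in Vash-1 and -0.24 in Shigu-2. MVP1, whose peak moves across the start codon, then stood at 6.69 in Shigu-2. Of the other genes, 12 past 2-fold became 9 with the repeats kept, 8 at a minimum of 20 CPM and 18 with no minimum. Median-of-ratios scaling shifted levels by 0.11 in Altenb-2 and -0.12 in Shigu-2 (log2) and left the 13 differences at 13. Of all genes past 2-fold in Altenb-2, 37.6% were higher, against 50.7% with that scaling and 18.5% with the repeats kept; in Shigu-2 these were 50.6, 37.8 and 74.9%. NSP2 is limited by depth, at 15 to 37 tags.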

Other observations

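Tags on the strand opposite to the genes were few, and the cases named here were chosen after their values were seen. NSP1 had 155 antisense tags in Vash-1 (6.32 CPM), in 3 clusters near its 3′ end (chromosome 3, 5568294 to 5568522, minus strand), and no listed antisense cluster in Altenb-2, Kly-1 or Shigu-2. ESM1 had 68 antisense tags in Altenb-2 (3.03 CPM), 25 in Vash-1, 16 in Kly-1 and 26 in Shigu-2, so its antisense tags were most frequent in the set with the most sense tags. The other 7 genes had 0 to 14 antisense tags per set, and MVP1, TGG1 and TGG2 had none listed in any set, although a cluster of up to 4 tags can go unlisted.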
